A study of Brassica napus with 6 samples.

Results

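Among the probe sets of an Arabidopsis array hybridised with oilseed rape root RNA, 78 read lower on each of 3 arrays from roots given cadmium together with glutathione than on any of 3 arrays from roots given cadmium alone. They were chosen by 2 limits on the deposited log2 signals: the highest Cd plus GSH value lay below the lowest Cd only value, and the difference between the group means was -0.3 or less. They are 78 of 22746 probe sets that are not controls (0.343%), and 78 of the 2428 probe sets (3.21%) that varied over the arrays at all, meaning that they ranged by more than 0.01 log2. The other 20318 probe sets (89.3%) were constant in the deposited table and could not have been chosen. The base of the logarithm was not stated and was taken as 2 from the range of the values, so fold values depend on it. Both limits were read from the comparison itself, so the differences below describe the members and are no test of them.

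Roots of Brassica napus, cultivar Nourin No.16, were grown in aerated hydroponics and exposed for 2 days. The Cd plus GSH group (3 arrays) received 10 µM cadmium chloride with reduced glutathione, given in the labels as 100 mM, a concentration that was not checked here. The Cd only group (3 arrays) received the same cadmium without glutathione, so cadmium is shared by all 6 arrays and plants without cadmium were not analysed here. One label gives a plant age of 4 weeks, whereas the growth protocol speaks of seedlings of 2 to 3 weeks. Replicates are labelled biological, and whether each came from its own container of 6 plants was not stated. Gene names are those of the Arabidopsis thaliana genes behind the array design, and the several copies of a gene in oilseed rape share one reading. Signal in such whole roots cannot separate fewer cells of a type from less RNA per cell.

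Plant cells that run short of sugar, in darkness or under stress, switch on a set of genes for taking apart amino acids, lipids and cell walls to feed respiration, under the control of the SnRK1 energy-sensing kinase. Cadmium is a toxic metal that binds thiols and disturbs redox balance. Glutathione is the main thiol of plant cells and the building block of the phytochelatins that bind cadmium. Stress signalling in roots runs through calcium sensors, receptor-like kinases, ubiquitin ligases and WRKY transcription factors, many of which respond to pathogens, wounding and metals alike.

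Of the 78 members, 30 (38.5%) carried exactly 1 gene name in the platform annotation, 5 carried several and 43 (55.1%) carried none. Among all varying probe sets the shares with 1 name and with none were 49.0% and 47.4%, and the 30 were 2.52% of the varying probe sets with 1 name. The 30 named genes fell into these groups: 3 starvation markers of the aluminium-induced-like family, 6 enzymes of catabolism, 3 stress enzymes, 9 signalling genes, 4 genes of growth and synthesis, and 5 with no role stated here. The grouping was made with the values known. None of these 30 genes had a second single-gene probe set, so no named member has such a check. For the other members this was not examined. Probe sets that match several related transcripts, marked s_at, made up 13 of the 78 (16.7%), beside 6.47% of the varying probe sets.

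The member differences, Cd plus GSH minus Cd only, ran from -2.00 to -0.31 log2 with a median of -0.52, while the median over all varying probe sets was 0.00. A difference of -1 is a halving of the signal on its linear scale, and 8 members reached it, 3 of them named. The median member level was 6.67 with Cd plus GSH and 7.44 with Cd only, and the corresponding medians over the varying probe sets were 6.27 and 6.28. In the other direction, 56 probe sets (2.31% of the varying ones) met the mirror-image limits. The gap between the lowest Cd only value and the highest Cd plus GSH value was small in many members: it was under 0.1 in 22, over 0.3 in 13 and 0.15 at the median.

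**Figure D1:**
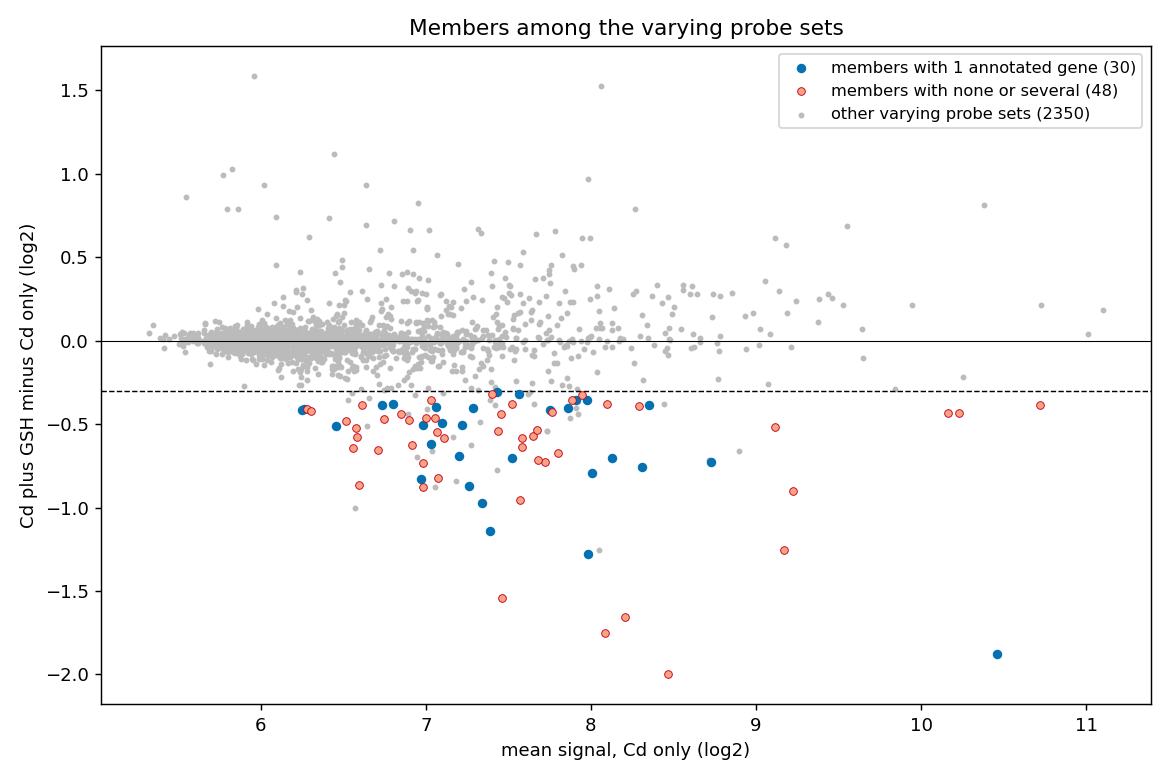
Difference between the groups (Cd plus GSH minus Cd only, log2, vertical) against the mean Cd only signal (log2, horizontal) for the 2428 varying probe sets, with the limit of -0.3 dashed. The 30 named members (blue) and the 48 with no name or several (orange) lie below the line across most of the signal range, and grey points below it are probe sets whose groups overlapped.

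The starvation markers held the lowest difference among named genes. AT4G27450 (probe set 253874_at), a relative of AILP1 whose transcript is known to accumulate in darkness and sugar shortage in Arabidopsis, read 7.39, 9.06 and 9.30 on Cd plus GSH arrays 1 to 3, against 10.30, 10.78 and 10.31 on Cd only arrays 1 to 3. Its difference was -1.88, or 3.68-fold lower. The Cd only arrays lay close together, the Cd plus GSH arrays were spread widely with replicate 1 lowest, and the groups were 1.00 apart at their nearest. Without Cd plus GSH replicate 1 the difference was -1.28.

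AT3G15450, a relative also known as SEN5 for its rise in senescing leaves, read 7.18, 7.31 and 7.15 with Cd plus GSH, against 8.16, 8.37 and 7.49 with Cd only (difference -0.79). AILP1 itself, named after genes induced by aluminium, read 7.76, 8.15 and 8.09 with Cd plus GSH, against 8.60, 8.67 and 8.91 with Cd only (difference -0.73). Cd plus GSH replicate 1 was the lowest array for AT4G27450 and AILP1, whereas AT3G15450 was even with Cd plus GSH and spread out with Cd only. The fourth measured gene of the family, AT5G43830, was constant at 6.44 and shows nothing in either direction.

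The list of sugar starvation and dark-induced genes held 35 genes, of which 8 were matched to a named probe set and 4 varied. All 3 AILP genes above are members, and the fourth varying gene, the transcription factor BZIP53, which acts in low-energy responses, had a difference of -0.10 without overlap. The median of the 4 was -0.76, but it rests on the members that the rule chose and is no measure of the list. Other matched genes of the list, including the SnRK1 subunit AKINBETA1 and the amylase AMY1, were constant. Of 10 matched autophagy genes, the machinery that recycles cell contents in starvation, 0 varied. Over all probe sets that are not controls only 10.7% varied, so nothing is read from that count.

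Among enzymes of catabolism, MCCA had the lowest difference. It encodes the biotin-bearing subunit of methylcrotonyl-CoA carboxylase, a mitochondrial enzyme of leucine breakdown. MCCA read 6.46, 6.30 and 6.41 with Cd plus GSH, against 7.15, 7.98 and 6.66 with Cd only, a difference of -0.87. The Cd plus GSH arrays agreed closely, the Cd only arrays did not, and without Cd only replicate 2 the difference was -0.51. Its partner subunit MCCB differed by -0.04 with overlapping groups.

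The list of branched-chain amino acid breakdown had 13 of 20 genes matched and 6 varying, with MCCA as the single member. All 6 had a lower mean with Cd plus GSH, at a median of -0.14, and 4 did not overlap, beside 9.84% of all varying probe sets that were lower without overlap. Of those 4, MCCA was chosen by the rule, and AT4G16800 and ETFQO differed by only -0.03 and -0.02. The list was chosen with earlier results known, so nothing is read from these counts. IVD, the isovaleryl-CoA dehydrogenase just before the carboxylase in leucine breakdown, differed by -0.29, and its groups overlapped through Cd only replicate 3 (6.83). ALDH6B2, which acts in valine breakdown, read 7.18, 7.18 and 7.09 with Cd plus GSH, against 7.25, 7.53 and 7.41 with Cd only, and stayed outside the limit at -0.25. Of 2 varying genes on the list of other amino acid and lipid breakdown, 0 were members.

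AT3G19390, a cysteine protease with a granulin repeat, read 7.68, 7.41 and 7.57 with Cd plus GSH, against 8.40, 8.69 and 7.84 with Cd only (difference -0.76). Its order of Cd only arrays was that of MCCA and AT3G15450: replicate 2 highest, replicate 3 lowest. AT2G39420, of the monoacylglycerol lipase family, read 6.70, 6.82 and 6.61 with Cd plus GSH, against 7.57, 7.10 and 7.00 with Cd only (difference -0.51). BGLU27, a beta-glucosidase, read 5.85, 5.85 and 5.80 with Cd plus GSH, against 6.74, 5.97 and 6.04 with Cd only.

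BGLU27 was dim. Its Cd plus GSH values all lay under 6.05, the highest mean among 27 control probe sets for bacterial genes, used here as a mark of background, although whether those transcripts were added was not given in the sources used here. Its signal was therefore at least 1.15-fold lower, a bound taken with its Cd plus GSH values set to that mark and resting on Cd only replicate 1, the single array above it. Over all members, 6 had every Cd plus GSH array at or under the mark, 12 had some, and 75 had every Cd only array above it. The remaining catabolic members were AT4G24160, a hydrolase acting on phospholipids and triacylglycerol (-0.38), and AT5G03610, a GDSL-type lipase (-0.31), whose groups were 0.03 apart.

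Of the stress enzymes, ALDH7B4 showed the lowest difference. It is an aldehyde dehydrogenase that removes reactive aldehydes formed under drought, salt and oxidative stress. ALDH7B4 read 6.41, 6.68 and 7.01 with Cd plus GSH, against 7.29, 8.86 and 7.80 with Cd only, a difference of -1.28 or 2.43-fold lower. Cd only replicate 2 stood above the other arrays, and without it the difference was -0.84. On the list of aldehyde dehydrogenases 8 of 16 genes were matched and 2 varied, ALDH7B4 and ALDH6B2.

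GR1, the glutathione reductase that turns oxidised glutathione back to the reduced form, read 7.68, 7.51 and 7.48 with Cd plus GSH, against 7.81, 8.02 and 7.91 with Cd only. It was among the members nearest to the limit, at -0.36, with even values in both groups. The glutathione list had 2 of 17 genes matched, GR1 and the second reductase, which was constant. AT2G43610, of the chitinase family that attacks fungal cell walls, read 7.65, 8.07 and 8.16 with Cd plus GSH, against 8.25, 8.39 and 8.41 with Cd only, and without Cd plus GSH replicate 1 its difference of -0.39 became -0.23.

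AT2G43610 was also the varying named gene whose profile was most like that of AT4G27450, with a Pearson r of 0.975 over the 6 arrays among the 1188 compared. The next were AT1G61900 (0.948), AT5G16880 (0.945), AT1G79210 (0.944) and AT1G25375 (0.944). None of these 4 is a member, because their differences were only -0.02 to -0.12. These correlations hold the group difference as well as the spread inside groups, over 6 arrays that all genes share.

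The 9 signalling members include calcium sensing, ubiquitin ligase, kinase and transcription factor genes. PUB23, a U-box ubiquitin ligase that restrains drought and immune responses, read 6.51 on all 3 Cd plus GSH arrays, against 7.96, 6.91 and 6.72 with Cd only, a difference of -0.69. CML38, a calmodulin-like calcium sensor, read 5.86, 6.00 and 5.97 with Cd plus GSH, against 7.09, 6.20 and 6.08 with Cd only, at least 1.32-fold lower when its dim values are set to the mark. AT2G26190, of a calmodulin-binding family, read 6.37, 6.44 and 6.42 with Cd plus GSH, against 7.73, 6.66 and 6.69 with Cd only (difference -0.62). In these 3 genes Cd only replicate 1 stood far above the other Cd only arrays, which lay just over the Cd plus GSH values. Without that array the differences were -0.31 for PUB23 and -0.27 for AT2G26190. The other Cd only values of CML38, 6.20 and 6.08, lay little above the mark of 6.05. Its Cd plus GSH values all lay under the mark, so no difference is given for it.

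The kinases were AT1G16670, B120 and AT3G17410, the last a receptor-like cytoplasmic kinase. AT1G16670, a cytoplasmic kinase known in Arabidopsis from cold signalling, read 6.48, 6.53 and 6.41 with Cd plus GSH, against 7.24, 6.88 and 6.84 with Cd only (difference -0.51). B120, of the S-domain receptor kinases, read 5.89, 5.94 and 5.71 with Cd plus GSH, against 6.69, 6.11 and 5.98 with Cd only, at least 1.15-fold lower. The groups of AT1G16670 were 0.30 apart, whereas those of B120 were 0.04 apart and close to background. AT3G17410 differed by -0.32.

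WRKY6, a transcription factor of senescence, defence and phosphate responses, read 6.29, 6.43 and 6.32 with Cd plus GSH, against 6.95, 6.67 and 6.58 with Cd only (difference -0.39). It was the single member on the list of oxidative signalling, where 4 of 25 genes were matched and 2 varied, and the other, the zinc finger gene STZ, differed by -0.07 with overlap. AT5G25560, a zinc finger protein of the CHY and RING type, differed by -0.41, and so did AT1G69840, a prohibitin-like membrane protein. On the defence list 5 of 23 genes were matched, 4 varied and 1, AT1G16670, is a member. The chitinase AT4G01700 stayed just outside, at -0.29.

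**Figure D2:**
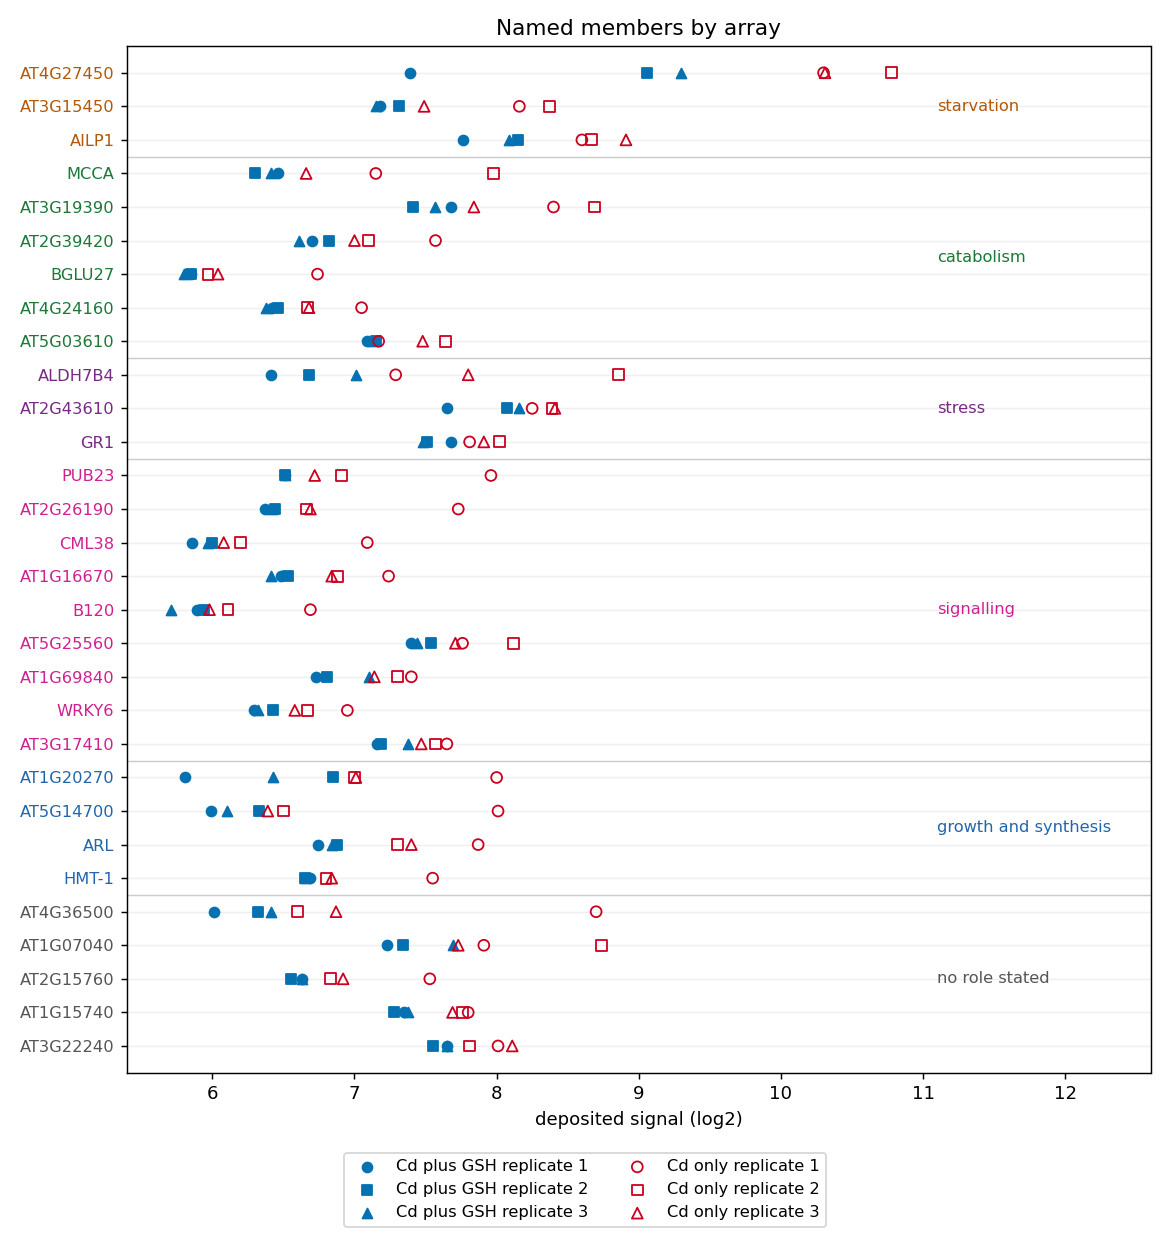
Deposited signal (log2) of the 30 named members on each array, grouped by role; filled blue symbols are the Cd plus GSH arrays and open red symbols the Cd only arrays. The Cd plus GSH values of PUB23 coincide at 6.51, AT4G27450 stands highest on every Cd only array, and Cd only replicate 1 (open circle) stands to the right in most signalling genes.

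All 4 genes of growth and synthesis were highest on Cd only replicate 1. AT1G20270, of the prolyl 4-hydroxylases, which modify cell wall proteins, read 5.81, 6.85 and 6.43 with Cd plus GSH, against 8.00, 7.00 and 7.01 with Cd only (difference -0.97, and -0.64 without Cd only replicate 1). AT5G14700, related to the cinnamoyl-CoA reductases of lignin synthesis, read 5.99, 6.33 and 6.10 with Cd plus GSH, against 8.01, 6.50 and 6.39 with Cd only (difference -0.83, and -0.30 without Cd only replicate 1). ARL, which promotes organ growth, read 6.74, 6.88 and 6.84 with Cd plus GSH, against 7.87, 7.30 and 7.40 with Cd only, and kept a difference of -0.53 without that array, against -0.70 with it. ARL thus had Cd only values clear of the Cd plus GSH ones on all 3 arrays, while AT5G14700 had 1 high array and 2 little above the Cd plus GSH values, with a gap of 0.06. HMT-1, a methyltransferase that makes methionine from homocysteine, differed by -0.40, and by -0.16 without Cd only replicate 1.

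Another 5 named members have no role stated here. AT4G36500 read 6.01, 6.32 and 6.41 with Cd plus GSH, against 8.70, 6.60 and 6.87 with Cd only, a difference of -1.14 that was -0.49 without Cd only replicate 1. AT1G07040 read 7.23, 7.34 and 7.69 with Cd plus GSH, against 7.91, 8.74 and 7.73 with Cd only (difference -0.71), with replicate 2 the high array and only 0.04 between the groups. AT2G15760 read 6.63, 6.55 and 6.63 with Cd plus GSH, against 7.53, 6.83 and 6.92 with Cd only (difference -0.49). AT1G15740, a protein with leucine-rich repeats, had the smallest sum of SDs over both groups among the named members: 7.35, 7.28 and 7.38 with Cd plus GSH, against 7.80, 7.76 and 7.69 with Cd only (difference -0.42). The SD of AT1G15740 was 0.05 with Cd plus GSH and 0.06 with Cd only, and the groups were 0.31 apart. AT3G22240 differed by -0.36.

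The members were thus not alike on the Cd only arrays. Cd only replicate 1 was the highest of its group in 48 of 78 members (61.5%), replicate 2 in 23 (29.5%) and replicate 3 in 7, while over all varying probe sets these arrays were highest in 37.4%, 29.6% and 33.0%. Since a high Cd only array helps a probe set to meet the limit on the mean difference, the rule bears on the member shares. By role, replicate 1 was highest in 8 of 9 signalling genes and in 4 of 4 genes of growth and synthesis, in 3 of 6 catabolic genes, and in 0 of 3 starvation markers and 0 of 3 stress enzymes. In the 48 members it topped, replicate 1 exceeded the mean of the other 2 Cd only arrays by 0.64 at the median and by 2.53 at most. In the 23 that replicate 2 topped, its excess was 0.39 at the median and 1.31 at most, in ALDH7B4.

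**Figure D3:**
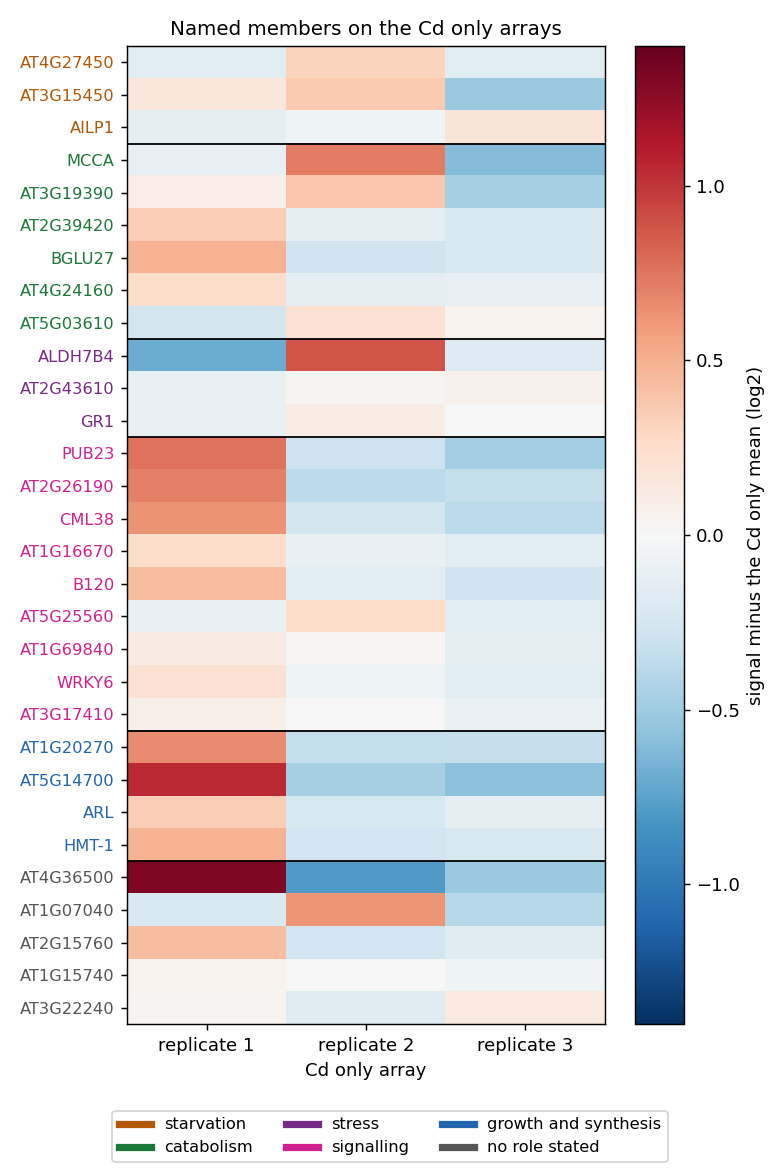
Signal on each Cd only array minus the mean of the 3 Cd only arrays (log2, colour) for the 30 named members, grouped by role. Replicate 1 is red for most signalling and growth genes, with AT4G36500 darkest, and replicate 2 is red for ALDH7B4, MCCA, AT1G07040 and the starvation markers AT3G15450 and AT4G27450.

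The same division appears in correlations of the deviations from group means. Among the 18 named members highest on Cd only replicate 1, the median Pearson r over 153 pairs was 0.93. Among the 9 highest on replicate 2 it was 0.53 over 36 pairs, and between the 2 sets it was -0.19 over 162 pairs. MCCA and AT3G15450 had 0.86, AT3G15450 and AT3G19390 0.89, and AT4G27450 and AT2G43610 0.95. These values rest on 6 arrays, the sets were split by the array that was highest, and 1 array with a large deviation sets most of each r, so they describe the profiles only.

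Variation among Cd only arrays exceeded that among Cd plus GSH arrays in most members. The SD was larger with Cd only in 61 of 78 (78.2%), with medians of 0.11 with Cd plus GSH and 0.31 with Cd only. Over all varying probe sets the SD was larger with Cd only in 59.8%, with medians of 0.04 and 0.05 in the same order, and over the 56 probe sets higher with Cd plus GSH it was larger with Cd only in 55.4%. A high Cd only array or a low Cd plus GSH array helps a probe set to meet the limit on the mean difference. The rule thus bears on these spreads, which describe the members only. On the Cd plus GSH side, replicate 1 was the lowest array in 49 of 78 members (62.8%), beside 32.6% of varying probe sets. In the 56 probe sets higher with Cd plus GSH, that array was the highest of its group in 34 (60.7%). The mirror-image limits chose those 56, so the rule bears on that share too. Over all varying probe sets, Cd plus GSH replicate 1 was highest of its group in 32.8%. The median member signal was 6.63, 6.79 and 6.66 on Cd plus GSH arrays 1 to 3, and 7.60, 7.36 and 7.19 on Cd only arrays 1 to 3.

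Leaving out Cd only replicate 1 left 60 of the 78 members within both limits, with a median difference of -0.40. The 18 lost included 9 named genes, namely AT2G26190, CML38, B120, WRKY6, AT3G17410, AT2G15760, BGLU27, HMT-1 and AT4G24160, of which 5 are signalling genes. BGLU27 then had only Cd only values under the background mark (5.97 and 6.04), and B120 had 1 above it and 1 under it (6.11 and 5.98), so no difference is given for either. Without that array, AT2G15760 differed by -0.27, AT4G24160 by -0.25, WRKY6 and AT3G17410 by -0.28, and AT2G39420, still a member, by -0.33. All 3 starvation markers and all 3 stress enzymes stayed. Cd only replicate 1 was the lowest of its group in 2 of these markers and in all 3 enzymes. Leaving it out could only widen the differences of those genes. The medians without that array were -0.79 for the markers and -0.44 for the enzymes. For the signalling genes, of which 8 of 9 were highest on it, the median was -0.28. These medians largely restate which array was highest and do not rank the roles. Leaving out any other array left 70 to 78 members. The 70 were those without Cd plus GSH replicate 1, where 27 named members stayed and the stress enzyme AT2G43610, at -0.23, did not. Without Cd only replicate 2, AT1G07040 differed by -0.40 and AT5G25560 by -0.27.

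**Figure D4:**
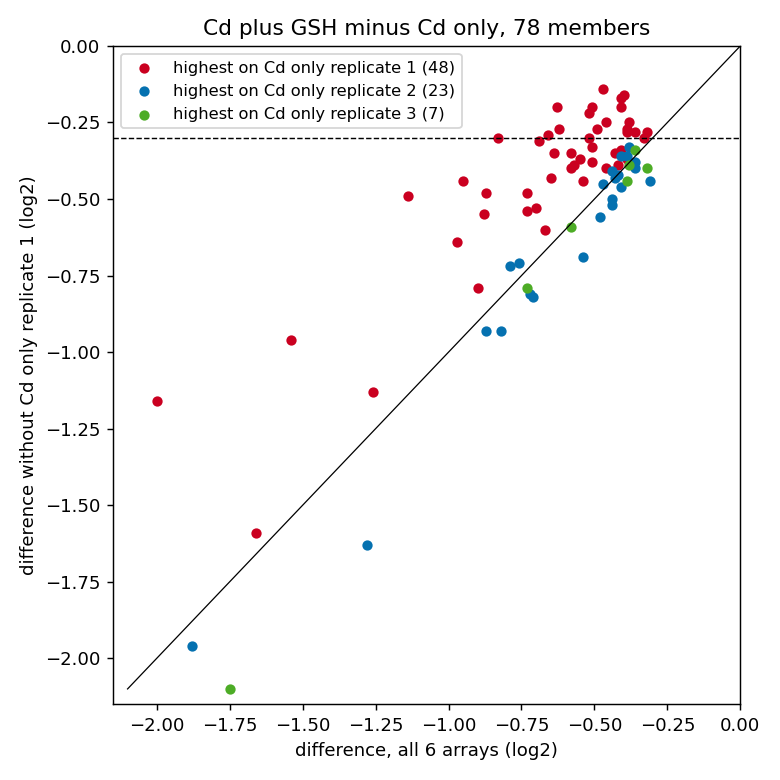
Difference between Cd plus GSH and Cd only (log2) without Cd only replicate 1 (vertical) against that with all 6 arrays (horizontal) for the 78 members, coloured by the Cd only array on which each was highest; the solid line marks equality and the dashed line the limit of -0.3. Members highest on replicate 1 lie above the solid line, and 18 members lie above the dashed line.

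Of the 8 members at -1 or lower, 5 were among the 48 without a single gene name. The lowest, 267024_s_at, read 5.60, 7.19 and 6.61 with Cd plus GSH, against 10.15, 7.61 and 7.64 with Cd only, a difference of -2.00 that was -1.16 without Cd only replicate 1. Probe set 265170_at read 6.89, 5.83 and 6.28 with Cd plus GSH, against 7.39, 8.39 and 8.48 with Cd only (difference -1.75). Probe set 264809_at read 6.27, 6.76 and 6.61 with Cd plus GSH, against 8.33, 8.24 and 8.04 with Cd only (difference -1.66). The last of these had tight values in both groups and the widest gap of any member, 1.28, whereas 267024_s_at rested in part on 1 array. Probe set 261892_at read 5.67, 6.01 and 6.08 with Cd plus GSH, against 8.61, 6.87 and 6.89 with Cd only (difference -1.54, and -0.96 without Cd only replicate 1), and 260847_s_at read 7.14, 8.13 and 8.47 with Cd plus GSH, against 9.42, 9.26 and 8.82 with Cd only (difference -1.26). Over the 48, the median difference was -0.54, close to the -0.51 of the named members, and Cd only replicate 1 was highest in 30.

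At the limit, the named members just inside were AT4G24160 at -0.379, GR1 and AT3G22240 at -0.355, AT3G17410 at -0.321 and AT5G03610 at -0.310. The named probe sets just outside, with groups that did not overlap, were AT4G01700 at -0.293, AT2G38640 at -0.265, AT1G72820 at -0.259, ALDH6B2 at -0.246 and AT2G43620 at -0.218. The chitinases AT4G01700 and AT2G43620 and the branched-chain amino acid enzyme ALDH6B2 thus stood just beyond the line. In all, 161 varying probe sets were lower without overlap by less than the limit, so that 239 (9.84% of the varying ones) were lower without overlap, beside 216 (8.90%) that were higher.

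Relatives of the members were mostly constant in the deposited table, as were 89.3% of all probe sets that are not controls. Of 7 calmodulin-like genes measured, CML38 alone varied, and of 20 beta-glucosidases BGLU27 alone. The same held for AT1G20270 among 4 prolyl 4-hydroxylases, AT2G39420 among 4 tandem lipase-like genes and AT5G03610 among 3. Of the U-box ligases, PUB22 varied and differed by -0.04, and PUB24 was constant. Of 8 chitinases 4 were constant, AT2G43610, AT4G01700 and AT2G43620 were lower by -0.39, -0.29 and -0.22, and CHI differed by 0.01. A constant value cannot show whether a relative changed.

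The list of low-oxygen genes had 3 of 15 matched, all varying, and 0 members: PDC2, a pyruvate decarboxylase of fermentation, differed by -0.38 with overlapping groups, AT4G17260, a lactate dehydrogenase, by -0.04 and AT3G10040 by -0.06. Of 4 matched genes for osmotic and abscisic acid responses, 0 varied, beside 10.7% of all probe sets, and nothing is read from so few. Over the 12 lists, 66 of 255 genes were matched, 24 varied and 8 were members, in 6 lists, beside 2.52% of all varying probe sets with 1 gene name. The lists were chosen with earlier results known, so nothing is read from that difference.

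As for tissue and array checks, of 3 matched root markers PYK10 and EXPA7 were constant at 7.06 and 6.50 and EXPA18 differed by 0.03, and of 8 green tissue markers 2 were matched and constant at 6.07 and 6.04, beside the background mark of 6.05. Among 18 control probe sets for actin, ubiquitin, GAPDH and ribosomal RNA, 11 varied. The 3' actin set read 8.95, 8.88 and 8.80 with Cd plus GSH, against 8.71, 8.68 and 8.58 with Cd only, and its 5' partner differed by 0.01. A set for the middle of ubiquitin read 8.40, 8.27 and 8.32 with Cd plus GSH, against 8.50, 8.64 and 8.56 with Cd only. The actin set was thus higher and the ubiquitin set lower on every Cd plus GSH array, and their part in the members' differences was not tested. With limma over the 2428 varying probe sets and Benjamini-Hochberg adjustment, 0 had an adjusted p under 0.05, members included, and 312 had an unadjusted p under 0.05, 150 higher and 162 lower with Cd plus GSH.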

How the data were processed

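Biotin-labelled cRNA of each of 6 root samples went onto its own 3' expression array, per the labels' protocols, and the annotation table shows the Arabidopsis ATH1 design. The authors deposited processed signals that were read here as log2 values, because they fall in the range usual for that scale; the base itself was not stated. Per the submitters' processing notes, R 2.7.2 was used. How signals were corrected for background, normalised and summarised was not given in the sources used here, and nothing further was done to them. Scan dates and slides were not given either, so no batch could be tested. Precision is limited by how few arrays there are.

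The 64 control probe sets were set apart. Members were found by the rule with Python 3.11.15 and pandas 2.3.3, and are described without tests, since the rule used the comparison. The background fit used lmFit and eBayes of limma 3.58.1, run in R 4.3.3, over probe sets ranging by more than 0.01, at a threshold of 0.05, checked on simulated data. Members, lists and role groups were chosen with earlier results of these data known. Lists were written from general knowledge of Arabidopsis and matched by locus or symbol, and a gene with several probe sets was read from the brightest. The relatives were picked after the values were seen.

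Named genes were members with exactly 1 annotated gene. Values on every array are given for the 20 with the lowest difference and for members on a list; the 5 lowest members without a single name are given by probe set. Alternatives were other limits, quantile normalisation, median centring, removal of dim probe sets, limma's trend and robust options, a replicate block and leaving out each array. A planned description of promoter motifs was not made, since no promoter sequences were used here.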

Additional observations from a re-analysis of the deposited data

How the results depend on the processing

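The count of 78 members was 43 with a limit of -0.5 and 30 with 1 probe set per named gene. With a limit of -0.2 it was 99, with overlap allowed 109, with quantile normalisation 78 (73 shared with the original) and with median centring 76 (76 shared). Leaving out each array in turn and choosing again gave 73 to 106. The median difference of the 78 original members ran from -0.61 to -0.40 over the normalisations and the settings without 1 array. With a limit of -0.2, branched-chain amino acid breakdown, aldehyde dehydrogenases and defence each held 2 members in place of 1, and with a limit of -0.5 oxidative signalling and glutathione each held 0. Without Cd only replicate 1, a setting added after seeing the data, branched-chain amino acid breakdown and aldehyde dehydrogenases held 2 and oxidative signalling 0. In both settings the gene added to branched-chain amino acid breakdown and to aldehyde dehydrogenases was the same, ALDH6B2, which is on both lists. Of the 240 recomputed differences of the 30 named members, 0 changed sign. Leaving out an array could not change a sign, since the rule allowed no overlap between the groups.

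The limma count of 0 adjusted calls became 2 with quantile normalisation, 42 over all 22746 probe sets, 5 over those ranging by over 0.1, and 0 to 13 when 1 array was left out, with 13 without Cd only replicate 3. It stayed at 0 with the intensity trend and with dim probe sets left out. The fit over all 22746 took in 20318 constant probe sets, and limma shares variance between probe sets. Its 42 calls are therefore not a fuller result. Whether replicate numbers pair the samples cannot be told from 3 arrays per group. The correlations of deviations were -0.111, -0.207 and 0.129, and 1 of 3 Cd plus GSH arrays correlated best with its own number. With the replicate block the count was 0, and 301 in place of 312 had an unadjusted p under 0.05. Depth has no counterpart on arrays; 6 members lay at or under the background mark on every Cd plus GSH array, so their differences are bounds.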
